A study of Mus musculus with 3 samples.

Results

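The MEF2, SRF and myocardin genes encode a set of transcription factors and cofactors of muscle. The set comprised Mef2a, Mef2b, Mef2c, Mef2d, Srf, Myocd, Mkl1, Mkl2 and Hopx, and its members were chosen by gene symbol: a locus belonged to it when the deposited transcript annotation gave it one of these names. This gave 9 loci of the 48626 in the expression table, and each locus held the transcripts of its own gene only. The data are FPKM values (fragment numbers divided by exon length and by library size) of heart ventricle from C57BL/6 mice, for which the labels name no further allele or treatment. There were 3 stages, the embryonic stages E10.5 and E13.5 (E for days of gestation) and adult mice of 8 weeks, and the question was how the genes of the set were expressed across them. Each stage was represented by 1 paired-end library of stranded total RNA, and 3 values in a row are always those of E10.5, E13.5 and adult. How many animals gave each library is not given in the sources used here. Without replicates no difference between stages had a replicate check, so no p-value is given and neighbours in any order of levels cannot be separated by an error.

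MEF2 proteins and SRF belong to the MADS-box factors, which bind A/T-rich DNA as dimers. MEF2 factors switch on genes of the contractile apparatus and of energy metabolism in muscle, and class IIa histone deacetylases hold them inactive until calcium signals release them. SRF binds the CArG box and works with alternative partners: myocardin (Myocd) and the myocardin-related factors Mkl1 and Mkl2, whose entry into the nucleus follows actin dynamics, or the ternary complex factors of the Elk group. HOPX is a small homeodomain protein that binds no DNA itself and restrains SRF in the heart.

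The ventricle label was compared with defining markers. The 6 cardiomyocyte markers were at 1 FPKM or more in every library, with sums of 3080, 5913 and 14707 FPKM. By differences in log2(FPKM + 1) of at least 1, 3 of them were higher and 1 lower from E10.5 to E13.5. From E10.5 to the adult, 5 were higher and 0 lower. The 6 smooth muscle markers summed to 1326, 1236 and 211 FPKM, mostly from Acta2, and from E10.5 to the adult 3 of them were lower and 1 higher, each time with a difference in log2(FPKM + 1) of at least 1. The 6 fibroblast markers summed to 232, 509 and 523 FPKM with medians of 21.1, 71.1 and 28.1, and Dcn alone gave 351 of the adult sum. The 6 macrophage markers summed to 6.91, 50.6 and 159 FPKM. Fewer cells of a type and less RNA per cell cannot be told apart in such bulk RNA, and the part of these shifts in the results below was not tested. The scaling as deposited did not centre the libraries. Over the 12569 mRNA loci that reached 1 FPKM in any library, the median difference of log2(FPKM + 1) was 0.17 from E10.5 to E13.5, -0.50 from E13.5 to the adult and -0.40 from E10.5 to the adult. The E13.5 library also stood apart by transcript length. From E10.5 to E13.5 the median difference ran from 0.54 in the shortest decile of transcripts to -0.45 in the longest, from E13.5 to the adult it ran from -0.92 to 0.08, and from E10.5 to the adult it lay between -0.37 and -0.44 in every decile. Differences of members and counts in the target lists that involve E13.5 are therefore also given relative to loci of like length.

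Among the Mef2 genes, Mef2a and Mef2c were the abundant ones at every stage, Mef2d was lower, and Mef2b lay below 1 FPKM. Mef2a was at 42.3, 39.9 and 67.3 FPKM, standing above 86.7%, 83.3% and 94.1% of the expressed mRNA loci (those at 1 FPKM or more). Mef2c, which is required for looping of the heart tube and growth of the right ventricle, was at 44.2, 26.9 and 30.01 FPKM. Mef2d was at 9.40, 6.25 and 11.1 FPKM. The adult library was thus the highest of the 3 for Mef2a and Mef2d, whereas E10.5 was the highest for Mef2c, and E13.5 was the lowest for all of these genes. Relative to loci of like length, the difference from E10.5 to E13.5 was -0.05 for Mef2a, -0.55 for Mef2c and -0.83 for Mef2d on the log2(FPKM + 1) scale, against -0.08, -0.69 and -0.52 as deposited. These values rest on reference lengths (6376 nt for Mef2c and 2459 nt for Mef2d). The longest assembled transcripts of Mef2c (15813 nt) and Mef2d (7815 nt) would fall in the longest decile, with a median of -0.45. Against that median both differences would be smaller, and Mef2d would lie close to it.

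Mef2b, known mainly from germinal centre B cells, was at 0.319 FPKM at E10.5 and 0.108 FPKM at E13.5 and was listed at 0 in the adult. By the lowest steps of the values these embryonic levels correspond to about 5.77 and 3.78 fragments, an approximate figure, and no fold was computed from them. Of 6 B cell markers, none reached 1 FPKM in either embryonic library and 2 did in the adult, Cd79b at 1.15 and Bcl6 at 6.96 FPKM.

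The Mef2 genes as a whole summed to 96.2, 73.2 and 108 FPKM. Within this sum, Mef2a took 44.0%, 54.5% and 62.1%, whereas Mef2c took 45.9%, 36.8% and 27.7%. Mef2d kept between 8.54% and 10.2%. The ratio of Mef2a to Mef2c was accordingly 0.958, 1.48 and 2.24, and a ratio within a library does not depend on the scaling between libraries. FPKM divides by transcript length, and Mef2c has the longer transcripts, so that its share of fragments was larger: with FPKM multiplied by the exon length of the locus, Mef2a took 22.6%, 30.9% and 38.7% and Mef2c 68.4%, 60.4% and 49.9%. The exon length of a locus is the same in every library, so the order of the Mef2a to Mef2c ratio over the stages could not differ between the measures.

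**Figure D1:**
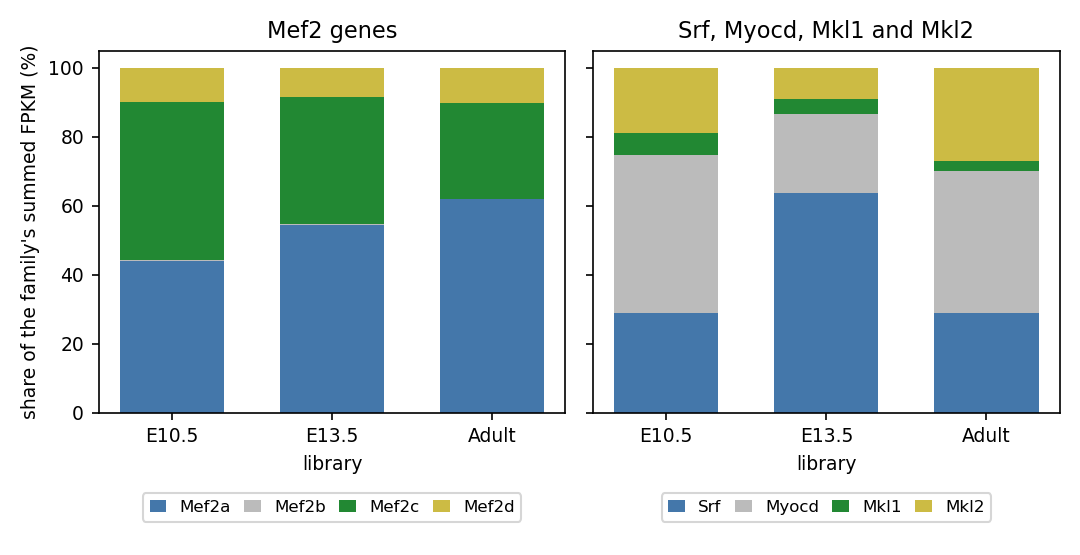
Share (%) of each gene in the summed FPKM of its family in the 3 libraries, for the Mef2 genes (left) and for Srf with the myocardin family (right), 1 library per bar. The Mef2a share was 44.0%, 54.5% and 62.1%, and Srf held 63.9% at E13.5 against 28.9% and 29.0% in the other libraries (37.7%, 11.997% and 11.6% with FPKM times exon length).

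The Mef2 genes share the part of the protein that binds DNA. The annotation held 1 coding exon of 204 nt in all 4 genes, present in every assembled transcript that spans it, and this exon carries part of the MADS box and the adjoining MEF2 domain. It is shown because it is the part that makes these loci 1 family. The sequences are from GRCm38.p6, read 5′ to 3′ on the strand of the gene.
Mef2a, chr7:67295375-67295578, minus strand: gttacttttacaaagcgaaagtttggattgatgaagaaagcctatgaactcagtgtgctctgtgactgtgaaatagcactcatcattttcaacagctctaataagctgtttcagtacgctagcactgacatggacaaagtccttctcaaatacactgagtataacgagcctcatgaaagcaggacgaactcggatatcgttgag
Mef2b, chr8:70165048-70165251, plus strand: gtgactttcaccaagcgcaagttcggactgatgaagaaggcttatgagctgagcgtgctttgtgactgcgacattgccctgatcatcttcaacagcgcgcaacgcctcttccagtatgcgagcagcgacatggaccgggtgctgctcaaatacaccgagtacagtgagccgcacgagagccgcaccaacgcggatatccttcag
Mef2c, chr13:83592778-83592981, plus strand: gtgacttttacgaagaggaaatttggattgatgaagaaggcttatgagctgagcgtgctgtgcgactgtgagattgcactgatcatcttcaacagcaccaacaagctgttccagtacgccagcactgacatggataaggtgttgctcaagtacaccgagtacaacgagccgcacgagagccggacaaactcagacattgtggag
Mef2d, chr3:88156322-88156525, plus strand: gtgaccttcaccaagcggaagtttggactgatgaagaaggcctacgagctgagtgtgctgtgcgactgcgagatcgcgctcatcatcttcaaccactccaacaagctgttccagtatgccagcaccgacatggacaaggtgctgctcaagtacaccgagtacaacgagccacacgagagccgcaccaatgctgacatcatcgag
Mef2a and Mef2c were identical at 166 of these 204 bases (81.4%) and at 67 of the 68 encoded residues. Mef2b was the most distant, with 85.3% of residues shared with each of the other genes. No pair was near-identical at the level of bases, where identity lay between 76.0% and 85.8%.

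Directly downstream of this exon, Mef2c and Mef2d each held a pair of coding exons of which every assembled transcript spanning them used exactly 1. These are the mutually exclusive alpha exons, and the downstream member of the pair is known as the muscle form in Mef2d. In Mef2c the upstream exon (144 nt) was in 6 of 8 transcripts and the downstream exon (138 nt) in 2, and in Mef2d the upstream exon (138 nt) was in 7 of 10 and the downstream exon (135 nt) in 3. These are counts of assembled transcript models over all 3 libraries together, and FPKM values were used per locus only, so the use of each exon per stage was not measured. The exons are shown to compare the pairs between genes, from GRCm38.p6, read 5′ to 3′ on the strand of the gene.
Mef2c upstream exon, chr13:83625265-83625408, plus strand: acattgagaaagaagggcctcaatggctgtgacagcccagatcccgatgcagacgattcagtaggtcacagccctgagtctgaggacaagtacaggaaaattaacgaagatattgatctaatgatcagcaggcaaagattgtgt
Mef2c downstream exon, chr13:83625470-83625607, plus strand: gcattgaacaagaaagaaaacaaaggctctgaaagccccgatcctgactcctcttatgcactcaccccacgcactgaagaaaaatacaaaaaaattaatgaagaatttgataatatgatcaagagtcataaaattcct
Mef2d upstream exon, chr3:88158034-88158171, plus strand: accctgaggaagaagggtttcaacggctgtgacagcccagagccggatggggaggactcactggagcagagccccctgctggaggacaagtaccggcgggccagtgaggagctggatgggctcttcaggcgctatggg
Mef2d downstream exon, chr3:88158221-88158355, plus strand: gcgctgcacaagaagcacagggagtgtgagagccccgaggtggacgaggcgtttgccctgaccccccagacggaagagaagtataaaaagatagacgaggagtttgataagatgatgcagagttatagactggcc
In encoded residues, exons in the same place were more alike between Mef2c and Mef2d than the pair within either gene. The downstream exons of Mef2c and Mef2d shared 56.5% of encoded residues and the upstream exons 54.2%, while the pairs within Mef2c and within Mef2d shared 43.8% and 35.4%. Mef2a held a coding cassette of 24 nt at chr7:67244521-67244544 (minus strand), in 4 of 7 transcripts, with the sequence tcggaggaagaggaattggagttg. It lies where the acidic beta exon of MEF2 proteins is known.

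Srf and its myocardin-type cofactors followed different courses in the 3 libraries. Srf was at 18.5, 32.8 and 14.3 FPKM, so that E13.5 was its highest library. Myocd, the cofactor restricted to cardiac and smooth muscle, was at 29.4, 11.7 and 20.3 FPKM and had its lowest value at E13.5. Mkl2 was at 12.1, 4.56 and 13.3 FPKM and was likewise lowest at E13.5. Mkl1 was at 3.997, 2.28 and 1.45 FPKM, the lowest of the cofactors in every library, and lay above 19.3%, 9.76% and 4.80% of expressed mRNA loci.

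The summed FPKM of Srf, Myocd, Mkl1 and Mkl2 was 64.0, 51.3 and 49.3. Srf took 28.9%, 63.9% and 29.0% of it, against 45.9%, 22.8% and 41.1% for Myocd. With FPKM multiplied by the joined exon length of the locus, Srf took 11.997%, 37.7% and 11.6% and Myocd 55.8%, 39.4% and 48.0%. E13.5 had the highest Srf share on both measures, but Srf was above Myocd there on the first only. Each exon length is the same in every library, so the second measure is no separate check of the order of the stages. The joined exons of Myocd (14648 nt) are longer than any of its transcripts (at most 9340 nt), so the second measure overstates its fragments. The same holds for Srf (5019 against 4093 nt), Mkl1 (7975 against 5966 nt) and Mkl2 (17905 against 9154 nt), to unequal degrees. By the longest transcript of each locus, the E13.5 levels correspond to roughly 3578 fragments for Srf and 2919 for Myocd. The ratio of Myocd to Srf was 1.59, 0.357 and 1.42, so that the embryonic library at E10.5 and the adult library stood close together and E13.5 apart. Mkl2 exceeded Mkl1 by 3.04-fold, 2.0-fold and 9.18-fold. The length trend of the E13.5 library runs in the same sense as part of this, since the reference transcripts of Srf (4093 nt) were shorter than those of Myocd (5117 nt) and Mkl2 (8281 nt). Relative to loci of like length, the difference from E10.5 to E13.5 was 0.72 for Srf, -1.12 for Myocd and -0.79 for Mkl2 on the log2(FPKM + 1) scale, against 0.79, -1.26 and -1.24 as deposited.

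**Figure D2:**
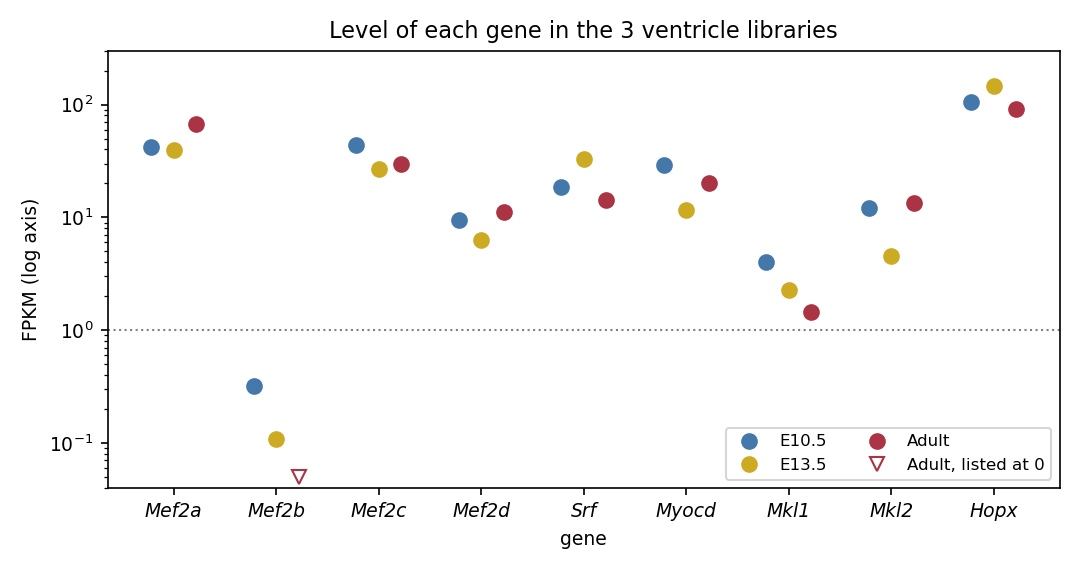
FPKM of each gene (log axis) in the E10.5, E13.5 and adult libraries, 1 point per library, with a dotted line at 1 FPKM and an open triangle for a value listed at 0. Hopx had the highest level in every library, Mef2b lay below 1 FPKM in all of them, and E13.5 was the highest library for Srf and Hopx.

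The myocardin family has its own common part. Myocd, Mkl1 and Mkl2 each held 4 coding exons of the same lengths in the same order, 66, 56, 76 and 162 nt, which together span 360 nt. The longest of them, read from GRCm38.p6 on the strand of the gene, is shown because it encodes an RPEL motif, the element through which Mkl1 and Mkl2 bind actin.
Myocd, chr11:65218529-65218690, minus strand: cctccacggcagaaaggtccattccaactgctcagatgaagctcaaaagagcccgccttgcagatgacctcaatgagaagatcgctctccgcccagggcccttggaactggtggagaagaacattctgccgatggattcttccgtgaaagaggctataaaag
Mkl1, chr15:81022397-81022558, minus strand: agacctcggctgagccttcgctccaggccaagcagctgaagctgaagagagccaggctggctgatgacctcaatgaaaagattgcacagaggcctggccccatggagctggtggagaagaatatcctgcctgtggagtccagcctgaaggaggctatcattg
Mkl2, chr16:13384194-13384355, plus strand: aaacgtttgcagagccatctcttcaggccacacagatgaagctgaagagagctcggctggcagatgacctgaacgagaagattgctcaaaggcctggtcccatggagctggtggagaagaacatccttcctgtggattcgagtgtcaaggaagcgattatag
In this exon Mkl1 and Mkl2 shared 90.6% of the encoded residues, whereas Myocd shared 73.6% with Mkl1 and 79.2% with Mkl2. Over all 4 exons the values were 87.4%, 65.5% and 68.1%. Mkl1 and Mkl2 were thus closer to each other in this region than either was to Myocd, while their levels differed by the ratios above.

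Hopx was the most abundant gene of the set in each library, at 106, 147 and 91.6 FPKM, above 95.7%, 96.3% and 95.9% of the expressed mRNA loci. It exceeded Srf, which it is known to restrain, by 5.73-fold, 4.47-fold and 6.39-fold. Its highest library was E13.5, as for Srf. Hopx transcripts are short (reference length 1233 nt), and relative to loci of like length its differences were 0.04 from E10.5 to E13.5 and 0.11 from E13.5 to the adult, against 0.47 and -0.67 as deposited.

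To read these differences against the rest of the transcriptome, a limit of 1 on the log2(FPKM + 1) scale (a ratio of about 2 for well expressed loci) was set and the members past it were counted beside all 12569 mRNA loci. From E10.5 to E13.5 no member was higher past the limit (5.89% of mRNA loci were) and 2 were lower, Myocd at -1.26 and Mkl2 at -1.24 (4.85% of mRNA loci were lower). In FPKM, Myocd was 2.51-fold and Mkl2 2.66-fold lower. Relative to loci of like length Myocd was still past the limit and Mkl2 was not (background 4.80%). This contrast rests on the reference length of Myocd (5117 nt), for which the decile median was -0.14. The longest assembled transcript of Myocd (9340 nt) would fall in the longest decile, that of Mkl2. Against the median of that decile (-0.45), Myocd would not be past the limit either.

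From E13.5 to the adult, Mkl2 was higher past the limit by 1.36 or 2.91-fold (background 13.0%), and Srf was lower, at -1.14 or 2.29-fold (background 32.1%). Other scalings gave other calls. With median-of-ratios factors, which bring the median difference of mRNA loci close to 0, Mef2a (1.298), Mef2d (1.24), Myocd (1.28) and Mkl2 (1.86) were higher past the limit (background 20.8%), and Srf at -0.60 was not lower past it, nor was any other member (background 18.9%). Relative to loci of like length Mef2a (1.08), Mef2d (1.41) and Mkl2 (1.28) were past it (background 20.6%), Myocd stood at 0.996 and Srf at -0.69, and no member was lower past it (background 16.7%). The Mef2a and Mef2d calls rest on reference lengths (4217 and 2459 nt). Their longest assembled transcripts, of 5586 and 7815 nt, would fall in deciles with medians of -0.25 and 0.08. Against these medians, Mef2a and Mef2d (each 0.74 as deposited) would not be past the limit. Mkl2 was thus past the limit in this comparison on each of these scales, whereas the calls of Srf, Mef2a, Mef2d and Myocd were not the same on all of them.

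From E10.5 to the adult, a comparison without the E13.5 library, Mef2c, Srf, Myocd and Hopx lay within -0.14 and 0.19 of the median of all mRNA loci. No member was higher past the limit as deposited (background 14.8%), and Mkl1 was lower, at -1.03 or 2.76-fold (background 27.3%). With median-of-ratios factors Mkl1 was at -0.76 and not past the limit, no other member was lower past it (background 18.4%), and Mef2a was higher by 1.06 (background 20.0%). Relative to loci of like length Mef2a was higher by 1.06 (background 20.8%) and none was lower (background 16.7%, Mkl1 at -0.62). Mef2a had the highest and Mkl1 the lowest difference of the 9 members from E10.5 to the adult on all 3 scales. The direction of Srf turned with the scale, from -0.35 as deposited to 0.04 with median-of-ratios factors and 0.07 relative to loci of like length, and that of Hopx turned from -0.21 to 0.20 on either of these. Against these background shares, 0 or 1 member of 9 past the limit is not a result about the members.

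**Figure D3:**
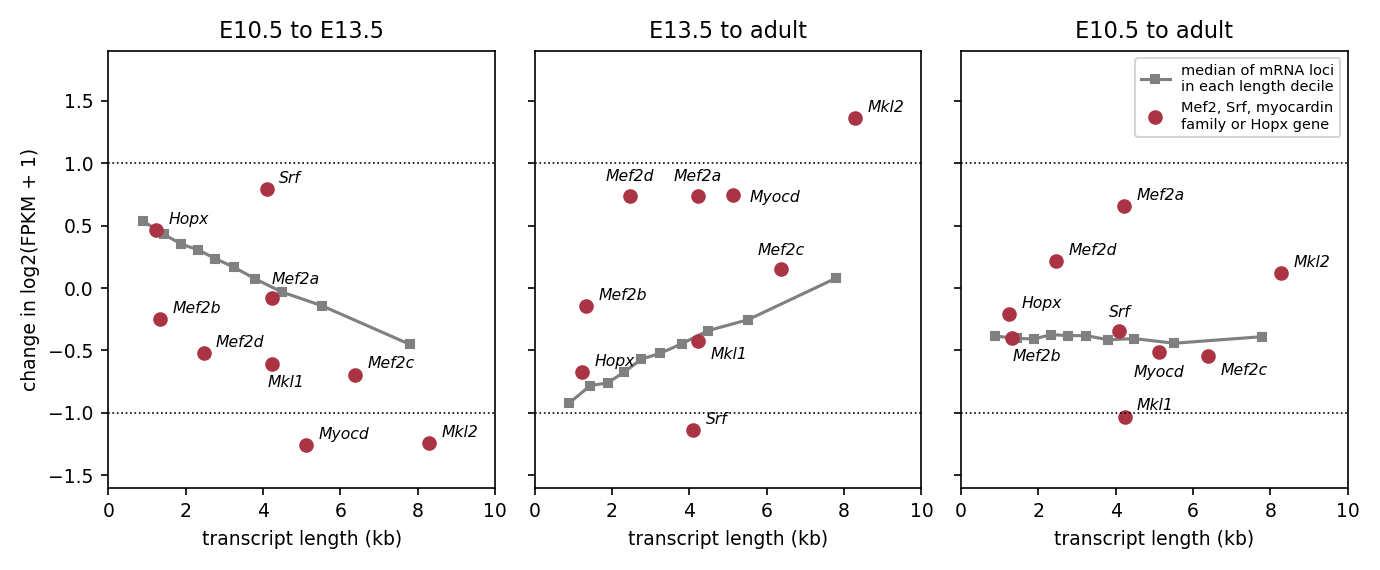
Difference in log2(FPKM + 1) between libraries against reference transcript length (kb) for the 9 genes (red) and for the median of mRNA loci in each decile of length (grey squares), with dotted lines at the limit of 1. Placed by reference length, Mef2b, Mef2c, Mef2d, Myocd, Mkl1 and Mkl2 lay below the grey line from E10.5 to E13.5. Srf lay above it, and Mef2a and Hopx lay close to it. The grey line was flat from E10.5 to the adult.

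The genes that regulate these factors were described by lists of known regulators and partners. Of 12 SRF cofactors and regulators, 11 had a locus at 1 FPKM or more, and from E10.5 to the adult 2 were higher and 3 lower past the limit (background 14.8% and 27.3%), with a median difference of -0.01 against -0.40 for all mRNA loci. The balance turned to 5 higher and 2 lower with median-of-ratios factors (background 20.0% and 18.4%) and relative to loci of like length (background 20.8% and 16.7%). Fhl2, a LIM protein that binds SRF and opposes its myocardin-dependent targets, was at 71.8, 116 and 877 FPKM and thus 3.59 higher on the log2(FPKM + 1) scale. Elk1, a ternary complex factor that competes with myocardin for SRF, was 1.03 higher (9.34, 9.67 and 20.1 FPKM), but its locus joins transcripts of Cfp and Uxt and the part of each gene is unknown. The largest differences downwards were those of Nkx2-5 (46.8, 61.1 and 9.37 FPKM) and Gata4 (63.6, 43.0 and 19.5 FPKM), which code for cardiac factors that bind together with SRF. Rock1, a kinase upstream of actin-regulated Mkl proteins, was at 28.0 FPKM in E10.5 and 27.8 in adult ventricle and was listed at 0 in E13.5, so that its counts past the limit in both comparisons with E13.5 rest on that value.

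Of the 15 MEF2 cofactors and regulators, none was higher and 3 were lower past the limit from E10.5 to the adult (background 14.8% and 27.3%). The median was -0.59, and neither count is above its background. Prkd1, a kinase that drives class IIa deacetylases out of the nucleus, was at 14.8, 6.54 and 3.83 FPKM. Mapk7, which phosphorylates MEF2 proteins, was at 7.94, 9.93 and 1.92 FPKM. Of the class IIa deacetylase genes, Hdac4 and Hdac9 differed from E10.5 to the adult by 0.25 and 0.05, and Hdac5 and Hdac7 by -0.59 and -0.75, on the log2(FPKM + 1) scale. All 4 HOPX partners on the list were expressed, and 3 were lower past the limit from E10.5 to the adult (median -1.36, background 27.3%). These were Nkx2-5 and Gata4, which stand on the SRF list too, and the deacetylase gene Hdac2, with -1.07. The count was 2 with median-of-ratios factors (background 18.4%) and also relative to loci of like length (background 16.7%).

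The target genes of SRF and of the MEF2 factors were described in the same way. Of 16 SRF and myocardin target genes, 1 was higher and 8 were lower past the limit from E10.5 to the adult (background 14.8% and 27.3%), with a median of -0.96. With median-of-ratios factors 1 was higher and 6 were lower (background 20.0% and 18.4%). Cnn1, coding for calponin of smooth muscle, was at 87.3, 136 and 2.87 FPKM, and Myl9, a regulatory light chain, was at 539.8, 822 and 35.7 FPKM. Myh11, the smooth muscle myosin heavy chain, went the other way at 0.112, 0.893 and 18.1 FPKM, and its E10.5 value lies well below 1 FPKM. All 6 smooth muscle markers are on this target list, so that its differences and those of smooth muscle markers are in large part the same values. Myocd itself differed from E10.5 to the adult by -0.52 and Srf by -0.35, near the median of mRNA loci.

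Of 14 MEF2 target genes, 6 were higher and 2 lower past the limit from E10.5 to the adult (background 14.8% and 27.3%), with a median of 0.88. Ckm, the muscle creatine kinase, was at 29.9, 58.8 and 1142 FPKM. Xirp2, which codes for an actin-binding protein of the intercalated disc, was at 3.54, 0.194 and 114 FPKM. Nppa, coding for atrial natriuretic peptide, was at 1744, 2385 and 37.9 FPKM, and Jun, an immediate early gene, was at 19.6, 23.0 and 6.53 FPKM. The summed level of cardiomyocyte markers moved in the same sense as Ckm and Xirp2 from E10.5 to the adult. Unlike Ckm, Xirp2 was lower at E13.5 than at E10.5, and the median difference of the MEF2 targets there was -0.34. The part of the marker shift in these differences was not tested. From E13.5 to the adult, 9 of the MEF2 targets were higher and 2 lower past the limit, while for the SRF and myocardin targets these counts were 2 and 8 (background 13.0% and 32.1%). With median-of-ratios factors the MEF2 targets gave 10 and 2 and the SRF and myocardin targets 3 and 5 (background 20.8% and 18.9%), and relative to loci of like length 10 and 2 against 3 and 6 (background 20.6% and 16.7%). Lists were compared by counts only, and no test of a list was made.

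**Figure D4:**
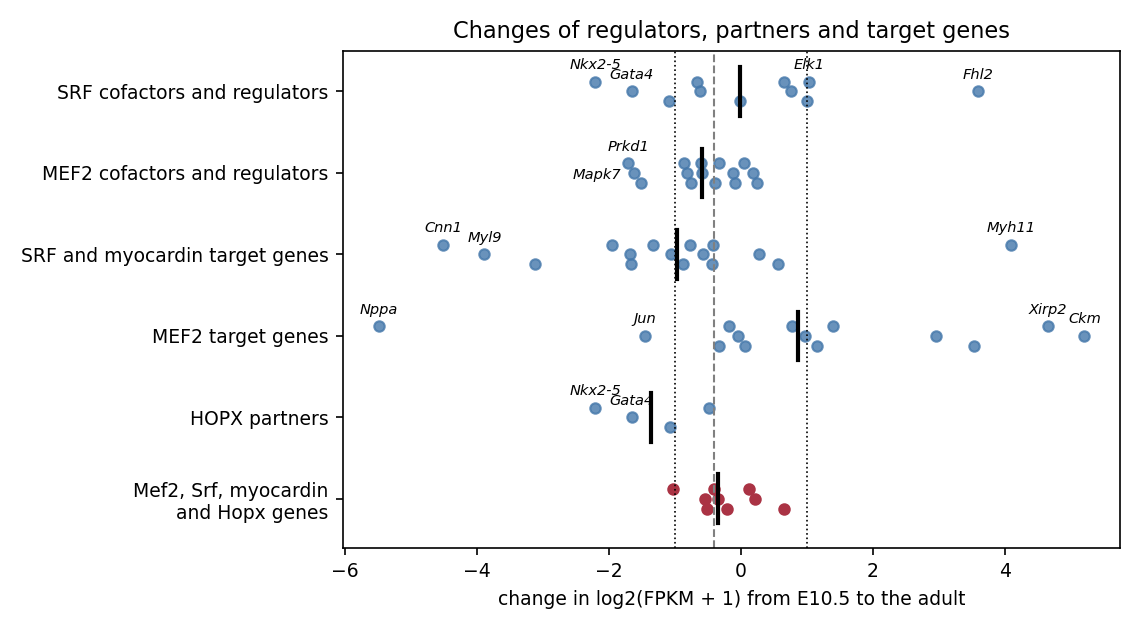
Difference in log2(FPKM + 1) from E10.5 to the adult for each expressed gene of the 5 lists (blue) and for the 9 genes of the set (red), with black bars at the medians, dotted lines at the limit of 1 and a dashed line at the median of mRNA loci (-0.40). The MEF2 targets had a median of 0.88 and the SRF and myocardin targets one of -0.96, while the 9 genes lay between -1.03 (Mkl1) and 0.66 (Mef2a).

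The promoters of the members were searched for the sites of the factors themselves, since MEF2 and SRF are known to act on genes of their own network. The CArG box and the MEF2 site were searched by their usual consensus on both strands from 250 bases before to 50 bases after each start in RefSeq (GRCm38.p6), and all printed matches read 5′ to 3′ on the strand of the gene. Of the 27025 genes with a promoter entry, 1.81% held a CArG box and 3.704% a MEF2 site in any of their promoters (1.63% and 3.19% of all 32851 promoters). Of the 8 members with an entry (all but Myocd), Srf and Hopx held a CArG box and Mef2a and Mkl2 a MEF2 site. The 250 bases before the start of the promoters with a match before the start are shown with the match in capitals.
Srf, chr17:46556163-46556412, minus strand: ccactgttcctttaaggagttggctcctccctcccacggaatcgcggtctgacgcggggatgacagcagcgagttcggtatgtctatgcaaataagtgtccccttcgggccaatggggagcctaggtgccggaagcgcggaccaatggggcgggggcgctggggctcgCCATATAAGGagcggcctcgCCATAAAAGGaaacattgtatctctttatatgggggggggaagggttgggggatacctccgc
Mkl2, chr16:13358171-13358420, plus strand: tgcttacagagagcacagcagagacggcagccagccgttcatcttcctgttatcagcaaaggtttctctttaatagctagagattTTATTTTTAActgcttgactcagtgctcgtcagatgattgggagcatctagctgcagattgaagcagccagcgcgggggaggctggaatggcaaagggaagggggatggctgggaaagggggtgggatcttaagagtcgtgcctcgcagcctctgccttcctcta
Hopx, chr5:77115124-77115373, minus strand: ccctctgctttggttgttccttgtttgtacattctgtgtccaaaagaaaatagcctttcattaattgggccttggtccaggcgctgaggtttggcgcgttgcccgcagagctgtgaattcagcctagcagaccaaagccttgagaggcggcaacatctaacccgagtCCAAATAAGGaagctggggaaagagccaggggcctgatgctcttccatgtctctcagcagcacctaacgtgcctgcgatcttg
Srf held 2 CArG boxes, at -82 to -73 and -62 to -53 from its start. The CArG box of Hopx lay at -83 to -74 of the distal of its 2 starts, and the MEF2 site of Mkl2 at -165 to -156 of its most downstream start in RefSeq. A match describes the letters in this window and is not a bound site.

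For comparison, 5 of the 12 SRF and myocardin targets with a promoter entry held a CArG box (Acta1, Actc1, Actg1, Myl9 and Vcl) and 3 of the 12 MEF2 targets a MEF2 site (Xirp2, Klf2 and Jun), while no SRF target held a MEF2 site and 1 MEF2 target, Myom1, held a CArG box. The match in Mef2a crosses its start, from -2 to +8, and is not counted when only the bases before the start are read. These matches are shown in windows of 30 bases with the match in capitals, the CArG box for the SRF targets and the MEF2 site for Mef2a and the MEF2 targets.
Mef2a, match at chr7:67372851-67372860, minus strand: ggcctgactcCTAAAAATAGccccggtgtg
Acta1, match at chr8:123894839-123894848, minus strand: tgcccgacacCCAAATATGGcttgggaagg
Actc1, match at chr2:114052913-114052922, minus strand: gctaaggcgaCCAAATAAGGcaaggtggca
Actg1, match at chr11:120348576-120348585, minus strand: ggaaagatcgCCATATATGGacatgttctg
Myl9, match at chr2:156775303-156775312, plus strand: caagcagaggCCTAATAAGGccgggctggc
Vcl, match at chr14:20929171-20929180, plus strand: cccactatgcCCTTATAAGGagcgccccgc
Xirp2, match at chr2:67445928-67445937, plus strand: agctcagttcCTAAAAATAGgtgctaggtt
Klf2, match at chr8:72318944-72318953, plus strand: tataccgcggCTAAATTTAGgctgagcccg
Jun, match at chr4:95052246-95052255, minus strand: acatcatgggCTATTTTTAGggattgactg
Of the genes with a CArG box here, Myl9 differed from E10.5 to the adult by -3.88, Actg1 by -1.68, Acta1 by -1.33, Vcl by -0.57 and Actc1 by -0.42. Those with a MEF2 site were Xirp2 with 4.66, Klf2 with 0.06 and Jun with -1.45. Outside the SRF targets, the CArG box was also found in Myom1, with 1.40, and in Fhl2, which held both sites, with 3.59. Hdac5, from the list of MEF2 cofactors, held a MEF2 site at -20 to -11 and differed by -0.59. Over the lists, genes with a CArG box and genes with a MEF2 site thus lay on both sides of 0.

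The assembly held 58 transcripts in the 9 loci, and the spliced structure of the reference transcripts could be placed exactly, with 99 of 99 introns in GENCODE M21. The number of start positions differed between genes. Mef2a (chr7:67231141-67372858) and Mef2b (chr8:70152778-70167488) had 1 each, and Hopx (chr5:77086986-77115123) had 2, both of RefSeq transcripts. Srf (chr17:46546712-46556162) had 2, Mef2c (chr13:83504034-83676170) 4, Myocd (chr11:65170703-65270471) and Mkl1 (chr15:81012011-81190757) 5, Mef2d (chr3:88140476-88172638) 6 and Mkl2 (chr16:13256274-13418118) 8. Of the 8 starts of Mkl2, 3 belonged to transcripts matching RefSeq and the others were seen in assembled models only, whose 5′ ends can be incomplete.

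**Figure D5:**
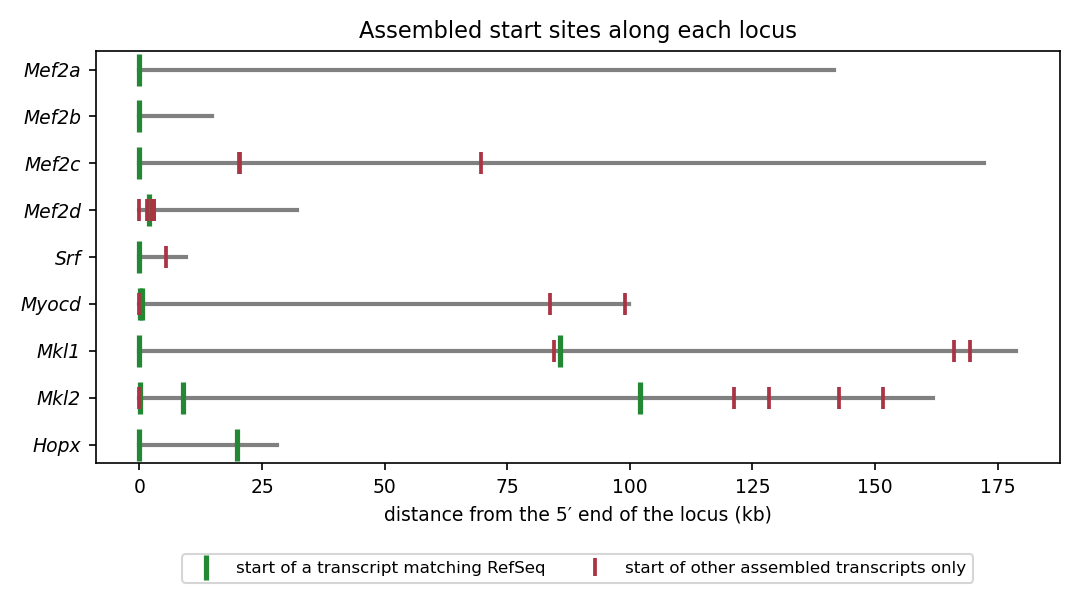
Start positions of the assembled transcripts along each locus, as distance (kb) from the 5′ end of the locus, with grey lines for the length of the locus, green marks for transcripts that match RefSeq and red marks for other models. Mef2a and Mef2b had 1 start position and Mkl2 had 8, of which 3 matched RefSeq.

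Several loci reached beyond the 3′ end of their RefSeq transcripts. Mef2c ended 9091 nt and Myocd 5858 nt past it, followed by Mkl2 (589 nt), Mef2d (547 nt), Mkl1 (270 nt), Srf (127 nt) and Mef2a (22 nt), while Mef2b and Hopx did not pass it. Since FPKM divides by exon length, such an extension enters the level of Mef2c and Myocd in all 3 libraries.

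Transcripts on the opposite strand, overlapping a member or starting within 3000 bp of its start, were found for 4 members. At Srf an unnamed unspliced transcript started 13 bp from the Srf start and was at 0.884, 0.821 and 0.456 FPKM. At Mef2a an unnamed unspliced transcript 2281 bp away was listed at 0 at E10.5 and was at 1.04 and 0.134 FPKM in the other libraries. The 3′ end of Mef2d is overlapped by 1700113A16Rik at 0.676, 1.05 and 0.164 FPKM. Mkl1 is overlapped at its 3′ end by Sgsm3, a protein-coding gene at 4.09, 6.08 and 3.12 FPKM, which exceeded Mkl1 itself (3.997, 2.28 and 1.45 FPKM) in every library, and 4930483J18Rik starts 96 bp from its distal start at no more than 0.0254 FPKM. The libraries were made with a stranded kit, but whether the FPKM estimate used the strand is not given in the sources used here, so the separation of Mkl1 from Sgsm3 reads is uncertain. No such transcript was found at Mef2b, Mef2c, Myocd, Mkl2 or Hopx.

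The mRNA loci with the most similar levels were sought for the members at 10 FPKM or more in a library. The measure was the Euclidean distance of log2(FPKM + 1) over the 3 libraries. Irf2bp2 and Commd6 were nearest to Srf at distances of 0.08 and 0.10, and Nipbl and Itpr1 to Myocd at 0.11 and 0.15. Vegfb (0.17) and Lrrc39 (0.19) were nearest to Mef2a, Nufip2 (0.15) and Pmp22 (0.18) to Mef2c, and Adi1 (0.05) and Zbtb44 (0.09) to Mef2d. R3hdm2 (0.15) and Mll3 (0.19) were nearest to Mkl2, and 1810027O10Rik (0.10) and Rab2a (0.13) to Hopx. No member of the set was among the loci nearest to another. This distance counts the level as well as the course, so it cannot show whether members at different levels shared a course.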

How the data were processed

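Total RNA of heart ventricle was sequenced at 3 stages with 1 stranded paired-end library each. Per the study's methods the authors used Tophat2 (with Bowtie, per the labels) for mapping to mm10, assembled the mapped reads with Cufflinks with and without annotation, and deposited FPKM values per merged locus and library with the exons of the merged transcripts. Release numbers of the tools are not given in the sources used here. The members and gene lists were chosen with earlier results of these data known.

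Members were found by gene symbol. Loci with a transcript matching a RefSeq mRNA were counted as mRNA loci (20117, of which 12569 reached 1 FPKM in any library). Changes are differences of log2(FPKM + 1), which understate those of low loci. The limit was 1, and with 1 library per stage no test was possible. Named genes were all members and, per list, the 2 largest differences in each direction past the limit from E10.5 to the adult, with joined loci stated. The nearest loci and opposite-strand neighbours were named as well, and further genes (Acta1, Actc1, Actg1, Vcl, Klf2, Myom1, Hdac2, Hdac4, Hdac5, Hdac7, Hdac9, Rock1, Acta2, Dcn, Cd79b and Bcl6) were named after their values were seen. Marker lists of skeletal muscle (summed at 36.8, 14.1 and 3.33 FPKM in the order of the stages), endothelium (290.4, 214 and 283), erythroid cells (4406, 15172 and 24.9), B cells (0.534, 1.27 and 8.93) and nerve (11.8, 15.9 and 5.46) were read beside those in the text. No counts were used, and the depth of each sample is known only roughly. The lowest steps of the values place 1 fragment at 0.0725 FPKM over 1 kb at E10.5 and 0.0375 at E13.5, and the adult showed no clear step.

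Alternatives were median-of-ratios factors (1.07, 1.19 and 0.804), scaling without globin and mitochondrial genes, a pseudocount of 0.1, a limit of 2, no filter on low values, FPKM times exon length and promoters without the bases after the start. Differences relative to the median of the same decile of transcript length were added after seeing the data. Coordinates are mm10, the same assembly as GRCm38, and sequences are from RefSeq GRCm38.p6. Identity is from global pairwise alignment, and 1 pair of exons is not reported here. Steps were tested on simulated data. Python 3.11.15, numpy 2.4.6, pandas 2.3.3 and pysam 0.24.0 were used.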

Additional observations from a re-analysis of the deposited data

How the results depend on the processing

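No paired analysis was possible because there was 1 library at each stage, and none can be left out. Members past the limit of 1 were few. From E10.5 to E13.5 they were 0 higher and 2 lower also with median-of-ratios factors and without globin and mitochondrial genes, and from E10.5 to the adult 0 and 1 also without globin and mitochondrial genes. From E13.5 to the adult, 4 members were higher and 0 lower, both with median-of-ratios factors and without globin and mitochondrial genes. Relative to loci of like length the counts were 3 and 0, with members placed by reference length. From E10.5 to the adult, 1 member was higher and 0 lower with median-of-ratios factors and relative to loci of like length. From E10.5 to E13.5, 1 member was lower relative to loci of like length, namely Myocd when placed by its reference length. With a pseudocount of 0.1, which weighs low loci more, 3 members were lower from E10.5 to E13.5 (Mef2b, Myocd and Mkl2), 2 from E13.5 to the adult (Mef2b and Srf) and 2 from E10.5 to the adult (Mef2b and Mkl1). With a limit of 2, 0 members were past it in any comparison.

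The member counts above are to be read beside those of the 12569 mRNA loci. Of these, median-of-ratios factors placed 2618 past the limit upwards and 2380 downwards when E13.5 was compared with adult ventricle. The numbers were 526 and 790 from E10.5 to E13.5, and 2510 and 2311 from E10.5 to the adult. Without globin and mitochondrial genes, 422 were higher and 1086 lower from E10.5 to E13.5. In this setting 2158 and 2966 were past it from E13.5 to the adult, and 1909 and 3434 from E10.5 to the adult. With a pseudocount of 0.1 the numbers were 1276 and 948 from E10.5 to E13.5. They were 1966 and 4643 from E13.5 to the adult, and 2202 and 4111 from E10.5 to the adult. A limit of 2 left 107 higher and 31 lower from E10.5 to E13.5, 554 and 1242 from E13.5 to the adult, and 703 and 1018 from E10.5 to the adult. A locus under 1 FPKM in every library cannot pass a limit of 1 on the log2(FPKM + 1) scale, so dropping the filter on low values could not change these counts.

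Counts in the lists moved by more than 1.5-fold as follows. From E13.5 to the adult with median-of-ratios factors, 1 SRF cofactor was lower, 2 MEF2 cofactors were higher and 1 lower, and 5 SRF targets were lower, and from E10.5 to the adult 5 SRF cofactors were higher. Without globin and mitochondrial genes, 3 SRF cofactors were lower from E10.5 to E13.5, and 1 SRF cofactor and 5 SRF targets were lower from E13.5 to the adult. With a pseudocount of 0.1, 1 SRF target was higher from E10.5 to E13.5. Relative to loci of like length, 1 MEF2 cofactor was lower and 1 SRF target higher from E10.5 to E13.5, 1 SRF cofactor and 1 MEF2 cofactor were lower from E13.5 to the adult, and 5 SRF cofactors were higher from E10.5 to the adult. With a limit of 2, no MEF2 cofactor, SRF target or MEF2 target was lower from E10.5 to E13.5 (0 each). From E13.5 to the adult that limit left 2 SRF cofactors higher and 1 lower, 0 MEF2 cofactors lower, 1 SRF target higher and 4 lower, 4 MEF2 targets higher and 1 lower, and 1 HOPX partner lower. From E10.5 to the adult it left 1 SRF cofactor higher and 1 lower, 0 MEF2 cofactors lower, 3 SRF targets lower, 1 MEF2 target lower and 1 HOPX partner lower.

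With FPKM times exon length, the Mef2a share was 22.6%, 30.9% and 38.7%, the Mef2b share 0.04004% at E10.5 and 0.0196% at E13.5, and the Mef2c share 60.4% at E13.5 and 49.9% in adult ventricle. The Srf share was 11.997%, 37.7% and 11.6%, that of Myocd 39.4% and that of Mkl2 18.7% at E13.5, and that of Mkl1 4.12% at E10.5 and 1.87% in the adult. With only the bases before the start, 1 member held a MEF2 site.

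Of the 27 differences of members, 5 turned direction relative to loci of like length, 2 with median-of-ratios factors and 0 in the other settings, and no difference past the limit turned. The cause of these shifts was not tested. Without read counts, levels near or under 1 FPKM (Mef2b, and Mkl1 in the adult) are the least certain.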

Other observations

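Unnamed, unspliced transcripts on the same strand as a member, inside it or within 10000 bp past its 3′ end, were examined after the values had been seen. Myocd had 3 of them. They were at 6.51, 0.959 and 1.13 FPKM in the order E10.5, E13.5, adult (chr11:65171688-65172362, overlapping the locus), at 2.94, 0.0658 and 0.294 FPKM (chr11:65167691-65170117) and at 1.93, 0.0153 and 0.0424 FPKM (chr11:65165465-65167596). All 3 were highest at E10.5, as was Myocd itself at 29.4 FPKM. Mef2a had 2 such transcripts, at 0.929, 0.0614 and 0.197 FPKM and at 1.71, 0.0771 and 0.566 FPKM, again with the highest value at E10.5, where Mef2a (42.3 FPKM) was not at its highest. Mef2d had 1, at 0.651, 1.82 and 0.218 FPKM. None was found at the other members.

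Of the 114 introns in the assembled transcripts of the 9 loci, 112 were introns of GENCODE or RefSeq, so that the assembly added start and end positions and combinations of exons to these genes more than splice junctions.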
